A study of Mus musculus with 18 samples.

Results

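The circadian clock genes Arntl, Clock, Per1, Per2, Per3, Cry1, Cry2, Nr1d1, Nr1d2, and Dbp were examined in the whisker pad of mice after facial nerve transection. They were taken by name as core genes of the clock, with earlier results of these data known. They make up 10 of the 35150 genes whose transcript levels could be summed. The tissue was a biopsy of the rostral whisker pad, with its skin and muscle, from 9 adult mice, 3 at each of days 1, 3, and 7 after the operation, and RNA-seq was done on both sides of every mouse, which gives 18 samples. On the right side the facial nerve was cut (lesioned, denervated), and on the left side the skin was opened and closed again with the nerve spared (sham, intact). Every mouse carried both operations, so the lesion and the side of the face cannot be told apart. There were no unoperated mice. The study used male and female mice, and the sex and age of each single mouse are not given. The genotype and strain of these mice and the time of day at which tissue was taken are not given in the sources used here.

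The clock is a loop of transcription and translation that runs in most cells of the body, those of skin and skeletal muscle among them, with a period of about a day. The proteins of Arntl (also called BMAL1) and Clock bind as a pair to E-boxes and switch on the Per, Cry, Nr1d, and Dbp genes. PER and CRY proteins then repress that pair. The nuclear receptors of Nr1d1 and Nr1d2 (REV-ERB alpha and beta) repress Arntl through ROR elements, and DBP activates genes with D-boxes. In a tissue with a running clock, Arntl therefore peaks at another time of day than Dbp, the Nr1d genes, and the Per genes.

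As examples of the elements of this loop, 3 promoter windows that hold matches are given. Each has 300 bases, from 250 before a RefSeq transcription start to 50 after it, on GRCm38.p6. The windows are chr7:113207261-113207560 (plus strand) for Arntl, chr11:69098699-69098998 (plus strand) for Per1, and chr4:151044616-151044915 (minus strand) for Per3. Capitals mark the motif matches: the ROR element of Arntl at +31, the E-box at -164 and the D-box at -21 of Per1, and the D-boxes at -202 and -155 of Per3.
Arntl: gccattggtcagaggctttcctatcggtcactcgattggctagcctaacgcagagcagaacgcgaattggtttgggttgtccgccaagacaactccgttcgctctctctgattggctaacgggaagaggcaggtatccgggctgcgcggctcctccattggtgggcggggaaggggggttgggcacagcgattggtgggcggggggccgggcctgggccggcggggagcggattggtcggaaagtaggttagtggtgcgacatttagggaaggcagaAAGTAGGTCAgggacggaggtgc
Per1: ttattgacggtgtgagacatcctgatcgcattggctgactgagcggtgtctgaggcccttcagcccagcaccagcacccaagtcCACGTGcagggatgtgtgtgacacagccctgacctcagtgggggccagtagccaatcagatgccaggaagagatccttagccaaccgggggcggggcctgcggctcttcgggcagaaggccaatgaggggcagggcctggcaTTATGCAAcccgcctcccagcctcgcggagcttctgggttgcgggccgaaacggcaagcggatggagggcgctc
Per3: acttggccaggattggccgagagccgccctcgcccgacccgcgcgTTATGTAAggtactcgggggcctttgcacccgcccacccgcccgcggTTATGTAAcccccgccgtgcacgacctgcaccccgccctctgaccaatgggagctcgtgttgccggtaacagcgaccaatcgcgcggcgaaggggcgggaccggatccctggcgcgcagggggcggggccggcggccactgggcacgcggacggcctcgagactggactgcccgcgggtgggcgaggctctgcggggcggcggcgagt
The letters searched on both strands were CACGTG (E-box), CACGTT (variant E-box), and TTATGNAA (D-box), beside the ROR element in its usual consensus. Of 32544 promoter windows of the same length, 7.166% held the E-box, 4.714% the variant E-box, 3.392% the D-box, and 2.455% the ROR element. There were 13 windows for 9 of the clock genes, all but Per2. Of the 13, 2 held the E-box, 3 the variant E-box, 2 the D-box, and 1 the ROR element. Beside the matches above, Cry1 had an E-box at -58 and a variant E-box at -77, Cry2 a variant E-box at -164, and Nr1d1 a variant E-box at -26. The windows of Clock, Nr1d2, and Dbp and the other windows of Arntl and Per1 held no match. A match describes the letters only.

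Levels are given in TPM, a unit scaled for transcript length and sequencing depth, and were summed over the transcripts of a gene. All 10 clock genes passed the filter on low values, which asked for 1 TPM or more in 47% or more of samples. Over the means of the 9 mice the order was Dbp (27.6 ± 13.8 TPM, SD, n = 9), Per1 (25.9 ± 8.27), Nr1d1 (25.0 ± 6.09), Nr1d2 (23.9 ± 5.05), Cry2 (17.4 ± 1.84), Per3 (17.1 ± 5.72), Arntl (16.9 ± 4.39), Cry1 (9.59 ± 1.17), Clock (9.02 ± 1.26), and Per2 (5.88 ± 1.89). The first 4 of these lay within an SD of their neighbours, as did Cry2, Per3, and Arntl, and then Cry1 and Clock, and the mice's ranges of all adjacent pairs overlapped. Dbp had the widest range over the 18 samples, 8.86 to 59.1 TPM, a factor of 6.67. Cry2 had the narrowest, 13.8 to 21.03 TPM, a factor of 1.53.

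**Figure D1:**
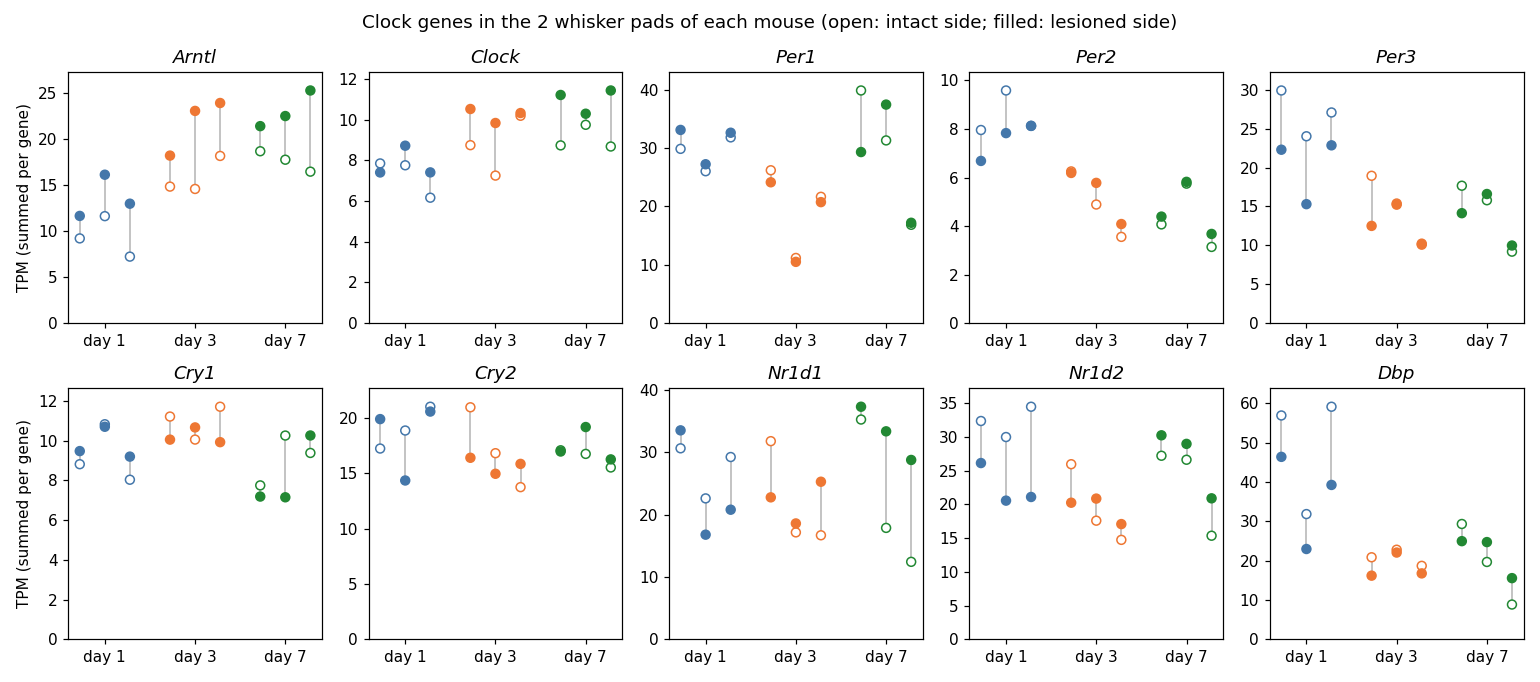
Level of each clock gene (TPM, linear axis from 0) in the intact and lesioned whisker pad of each of 9 mice, by day after facial nerve transection; open points are intact sides, filled points lesioned sides, and a line joins the 2 sides of 1 mouse. In every mouse the filled Arntl point lies above the open one, and the highest Dbp value, 59.1 TPM, is in a day 1 mouse.

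The samples held an estimated 10300000 to 32300000 reads, with a median of 14200000. Marker genes of skeletal muscle were detected in every sample, with summed levels of 3064 to 19256 TPM, and so were those of epidermis (4371 to 9261 TPM). Markers of hair follicle, fibroblasts, adipocytes, macrophages, Schwann cells, and endothelium were also detected in every sample, and salivary gland markers summed to 13.2 to 41.5 TPM with Smr3a and Bpifa2 at 0 in some samples. In such bulk tissue, fewer cells of a type and less RNA per cell cannot be told apart. At day 7 Ckm, the muscle creatine kinase, was lower on the lesioned side (log2 difference -1.12, limma adjusted p = 0.01), whereas the summed muscle markers were at 18379 to 19256 TPM there, above the 14203 to 18300 TPM of the intact side. Over all days the summed muscle markers were higher on the lesioned side in 5 of 9 mice. Bpifa2, a salivary protein gene, was lower on the lesioned side at day 7 (log2 difference -3.97, adjusted p = 0.00332) and over all days (-2.24, adjusted p = 0.0103), the only cell type marker called over all days, and its part in the clock genes' values was not tested.

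The first question was which clock genes differed between the lesioned and the intact side. Arntl was higher on the lesioned side in 9 of 9 mice, and it alone of the clock genes passed the test over all days (log2 difference 0.45, SE 0.09, limma adjusted p = 0.0103). The other 9 did not pass, and Clock, whose protein pairs with that of Arntl, came next with a log2 difference of 0.20 (SE 0.07, adjusted p = 0.146). Blocking by mouse, Arntl had an adjusted p of 0.00644 and was again the only clock gene called, where 3.5% of genes were. Arntl, Clock, and Per3 were then the 3 of 10 with an unadjusted limma p under 0.05, as were 2524 of 14757 genes. Without the block 1 of 10 clock genes was called, where 3.1% of 14757 genes were called in either direction and 1.92% as higher. SEs of side differences are from fits without the block unless it is named, and so take in the spread between mice. The median log2 difference was -0.02 over the clock genes and 0.0072 over all genes tested.

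Arntl (chr7:113207465-113314126, plus strand, GRCm38) encodes the clock's main activator. At day 1 its level went from 9.21 TPM on the intact side to 11.6 on the lesioned side in mouse 1, from 11.6 to 16.1 in mouse 2, and from 7.23 to 12.98 in mouse 3. At day 3 the levels were 14.8 and 18.2, 14.6 and 23.1, and 18.2 and 23.9 TPM. At day 7 they were 18.7 and 21.4, 17.8 and 22.5, and 16.5 and 25.3 TPM. At each of the 3 days the lesioned samples lay above all intact samples of that day, by as little as 11.65 against 11.62 TPM at day 1 and 18.20 against 18.16 at day 3. The share of all genes with such a separation was not counted. Of the other clock genes, Per3 and Nr1d2 were separated at day 1, with the lesioned side lower. Clock was separated at day 7, with the lesioned side higher. Over all days the Arntl groups overlapped, since both sides of the day 1 mice were low.

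Taken by day, the log2 difference of Arntl was 0.53 at day 1 (SE 0.20), 0.44 at day 3 (SE 0.14), and 0.38 at day 7 (SE 0.12). None of these passed with 3 mice alone (limma adjusted p = 0.999, 0.233, and 0.256). The difference did not itself differ between days by test (F = 0.213, limma adjusted p = 0.962). The call over all days was lost without mouse 2 of day 3, where the log2 difference was 0.42 (adjusted p = 0.0519). It was also lost when only the transcript with the highest level stood for each gene (log2 difference 0.31, adjusted p = 0.485), and the difference at day 7 was then -0.16, of the other sign. That transcript of Arntl, which codes for protein, holds 58% of the level and was higher on the lesioned side in 8 of 9 mice, and the next one, also coding, holds 22.7% and was higher in 6 of 9.

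No clock gene was called at any single day. At day 1 limma called 0 of 10 clock genes (0.0% of 14776 genes called), and 2 of 10, Arntl and Nr1d2, had an unadjusted p under 0.05, as did 634 of all genes. At day 3 it called 0 of 10 (1.45% of 14943 genes), with 1, Arntl, under an unadjusted 0.05, as were 2196 of all genes. At day 7 it called 0 of 10 (1.53% of 15081 genes), again with Arntl alone under an unadjusted 0.05, as were 1848 of all genes. Blocked by mouse, 0 of 10 were called at each day. The unadjusted p was then under 0.05 for 4, 1, and 2 of 10 at days 1, 3, and 7. So it was for 913 of 14776, 2793 of 14943, and 2665 of 15081 genes. The 4 at day 1 were Arntl, Per3, Nr1d2, and Dbp.

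**Figure D2:**
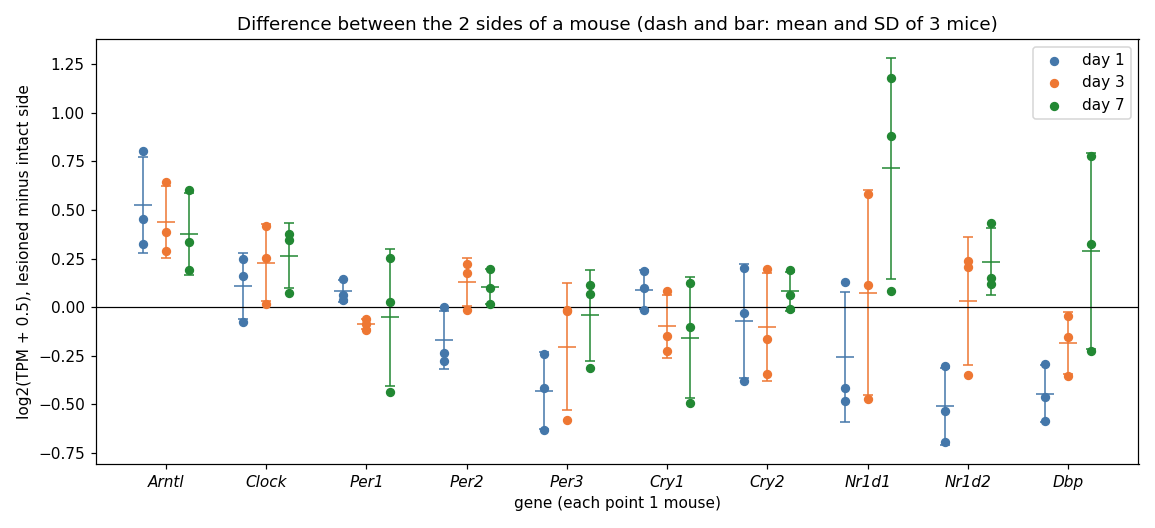
Lesioned minus intact difference of each clock gene on the log2(TPM + 0.5) scale, 1 point per mouse and 3 mice at each of days 1, 3, and 7, with a dash for the mean of the day and a bar for the SD (n = 3). The 9 Arntl points all lie above 0, between 0.19 and 0.80, while Nr1d2 lies below 0 in all mice at day 1 and above 0 in all mice at day 7.

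Clock (chr5:76209868-76304792, minus strand), which encodes the partner of ARNTL, ranged from 6.16 to 11.4 TPM. It was higher on the lesioned side in 8 of 9 mice, the exception being mouse 1 of day 1 with 7.85 TPM on the intact and 7.40 on the lesioned side. Its mean log2 differences were 0.11, 0.23, and 0.27 at days 1, 3, and 7. At day 7, 1.53% of genes were called, and Clock was not among them (limma adjusted p = 0.422).

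The Per genes encode the PER repressors. Per1 (chr11:69095217-69109960, plus strand) and Per2 (chr1:91415982-91459324, minus strand) had log2 differences between the sides of -0.02 (SE 0.21) and 0.02 (SE 0.13) over all days. These signs turned without mouse 1 of day 7 for Per1 (0.03) and without mouse 2 of day 3 or mouse 3 of day 7 for Per2 (-0.0044 and -0.0016). Blocked by mouse, the SE was 0.07 for Per1 and 0.07 for Per2. Per3 (chr4:151003652-151044665, minus strand) was lower on the lesioned side in 7 of 9 mice, with a log2 difference of -0.23 (SE 0.15, limma adjusted p = 0.57). Blocked by mouse, the SE of Per3 was 0.09 and its limma adjusted p 0.222. At day 1 its levels on the intact and lesioned sides were 29.9 and 22.3, 24.02 and 15.3, and 27.1 and 22.9 TPM. The difference of -0.43 at that day did not pass (limma adjusted p = 0.999). Most of the Per3 level, 75.0%, came from a single processed transcript that is annotated as not coding for protein, and the leading coding transcript held 20.7%.

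The Cry genes, whose proteins repress together with PER, had the smallest ranges beside Clock. Cry1 (chr10:85131700-85185064, minus strand) ran from 7.15 to 11.7 TPM and had a log2 difference of -0.06 (SE 0.08), with 4 of 9 mice higher on the lesioned side. Cry2 (chr2:92403646-92434043, minus strand) had a log2 difference of -0.03 (SE 0.08), also with 4 of 9 mice higher, and the sign turned without mouse 2 of day 1 (0.01) or mouse 1 of day 3 (0.0086).

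The Nr1d genes encode the repressors of Arntl. Nr1d2 (chr14:18204054-18239127, minus strand) was lower on the lesioned side in all 3 mice at day 1, with 32.4 and 26.1, 29.997 and 20.6, and 34.5 and 21.1 TPM on the intact and lesioned sides. At day 3 the levels were 25.97 and 20.3, 17.6 and 20.9, and 14.8 and 17.1 TPM, with 2 of 3 mice higher. At day 7 the levels were 27.2 and 30.3, 26.6 and 29.0, and 15.4 and 20.9 TPM, with 3 of 3 higher. The log2 differences were -0.51 (SE 0.13), 0.03 (SE 0.21), and 0.23 (SE 0.26), and none passed (limma adjusted p = 0.999, 0.971, and 0.774). The sign at day 3 turned without mouse 2 (-0.07) or mouse 3 (-0.06) of that day.

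Nr1d1 (chr11:98767932-98775333, minus strand) had the widest spread of side differences, with an SD of 0.60 on the log2 scale over 9 mice. At day 7 it was higher on the lesioned side in 3 of 3 mice, with 35.2 and 37.3, 17.9 and 33.3, and 12.4 and 28.8 TPM, a log2 difference of 0.71 (SE 0.35, limma adjusted p = 0.487). The values were thus close in mouse 1 and far apart in mice 2 and 3. Of the exonic bases of Nr1d1, 8.55% are shared with Thra on the other strand, and the library kit does not mark strand, so the reads there cannot be told apart.

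Dbp (chr7:45705088-45710203, plus strand) encodes the D-box activator that is a direct output of the loop. It was lower on the lesioned side in 7 of 9 mice. At day 1 its levels on the intact and lesioned sides were 56.9 and 46.4, 31.8 and 22.96, and 59.1 and 39.2 TPM, all 3 lower. At day 3 they were 20.9 and 16.2, 22.8 and 22.1, and 18.7 and 16.8 TPM, and at day 7 they were 29.3 and 25.0, 19.7 and 24.7, and 8.86 and 15.6 TPM. Mouse 2 of day 1 thus lay near the levels of the later days, and the sides overlapped at every day. The log2 difference over all days was -0.11 (SE 0.21, limma adjusted p = 0.888). Blocked by mouse, the SE of Dbp was 0.13 and its limma adjusted p 0.717. Dbp shares 18.01% of its exonic bases with Sphk2 on the other strand. Its leading coding transcript held 39.6% of the level, and transcripts annotated as retaining an intron held 35.9% and 17.5%.

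A test of whether the lesion's effect differed between days called 0 of 10 clock genes with limma, against 0.183% of all genes, and 0 of 10 had an unadjusted p under 0.05. Nr1d2 had the lowest p of the clock genes (F = 2.89, limma adjusted p = 0.654). Blocked by mouse, limma again called 0 of 10, against 0.244% of all genes. The unadjusted limma p was then under 0.05 for 2 of 10, Nr1d2 (0.00953) and Dbp (0.0327), as it was for 2100 of 14757 genes. Their adjusted p was 0.217 and 0.311.

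The second question was whether the 2 sides of a mouse were alike, beyond the day and the lesion. Per1 differed between mice of the same day (F = 22.8, limma adjusted p = 0.013), 1 of 10 clock genes against 1.66% of all genes. Its levels on the intact and lesioned sides were 29.9 and 33.1, 26.02 and 27.2, and 31.8 and 32.6 TPM at day 1. At day 3 they were 26.2 and 24.1, 11.2 and 10.499, and 21.6 and 20.7 TPM, and at day 7 they were 39.8 and 29.3, 31.3 and 37.4, and 16.8 and 17.2 TPM. Mouse 2 of day 3 and mouse 3 of day 7 were low on both sides. Without either of these mice the call was lost (adjusted p = 0.0803 and 0.0818). It was also lost when the highest transcript stood for each gene (F = 0.813, adjusted p = 0.735), where the 2 leading Per1 transcripts held 38.8% and 36.7% of the level.

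Dbp (F = 10.7, limma adjusted p = 0.0585), Per2 (F = 9.53, 0.0668), Per3 (F = 7.33, 0.0943), and Nr1d2 (F = 5.33, 0.134) came next and did not pass. With Per1 these were the 5 of 10 clock genes with an unadjusted p under 0.05, as were 3149 of the 14757 genes tested. The SD of the mouse means of Per1 was 0.54 on the log2 scale and that of its side differences 0.20. For Nr1d1 the order was the other way, 0.35 for the mouse means and 0.60 for the side differences.

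Across the 9 mice, the left (intact) level was compared with the right (lesioned) level by Pearson's r and Spearman's rho of the log2 values, with exact permutation tests over all pairings. Of 10 clock genes, 6 had an unadjusted exact p under 0.05, against 20.7% of all genes, and 1, Per2, passed after adjustment over all genes, against 0.379%. For Per2, r was 0.971 (exact permutation p = 4.134e-05, adjusted p = 0.0407) and rho 0.983 (exact p = 4.96e-05), and r was 0.955 without the 2 mice farthest from the median. The median r over all genes was 0.424. Per1 (r = 0.938, rho = 0.833), Arntl (r = 0.904, rho = 0.683), Dbp (r = 0.892, rho = 0.817), and Per3 (r = 0.883, rho = 0.783) followed, with adjusted exact p of 0.072, 0.0944, 0.0753, and 0.1. Without the 2 farthest mice, r was 0.686 for Per1, 0.741 for Arntl, 0.886 for Dbp, and 0.716 for Per3. At the other end, again over all mice, r was 0.695 for Clock (exact permutation p = 0.0371), which fell short of the threshold without mouse 2 or 3 of day 1, mouse 1 of day 3, or any of the mice of day 7 (r from 0.4925 to 0.713). It was 0.506 for Nr1d2, 0.464 for Cry1 (0.726 and past the threshold without mouse 2 of day 7), 0.258 for Cry2, and 0.144 for Nr1d1.

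The days held different mice, so the sides were also compared within days. On deviations from the mean of the day, r was 0.933 for Per2 (exact permutation p = 0.0231) and 0.848 for Dbp (exact p = 0.0278), and these were the only 2 of 10 with p under 0.05. It was 0.917 for Per1 and 0.75 for Per3 (exact p = 0.0556 for both) and 0.457 for Arntl (exact p = 0.398). It was 0.745 for Nr1d2 (exact p = 0.0602), 0.456 for Nr1d1 (exact p = 0.102), 0.295 for Cry1, 0.25 for Clock, and 0.169 for Cry2, with a median of 0.325 over all genes. The smallest p that the 216 pairings within days can give is 0.00463. The share of all genes with a within-day p under 0.05 was not counted.

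**Figure D3:**
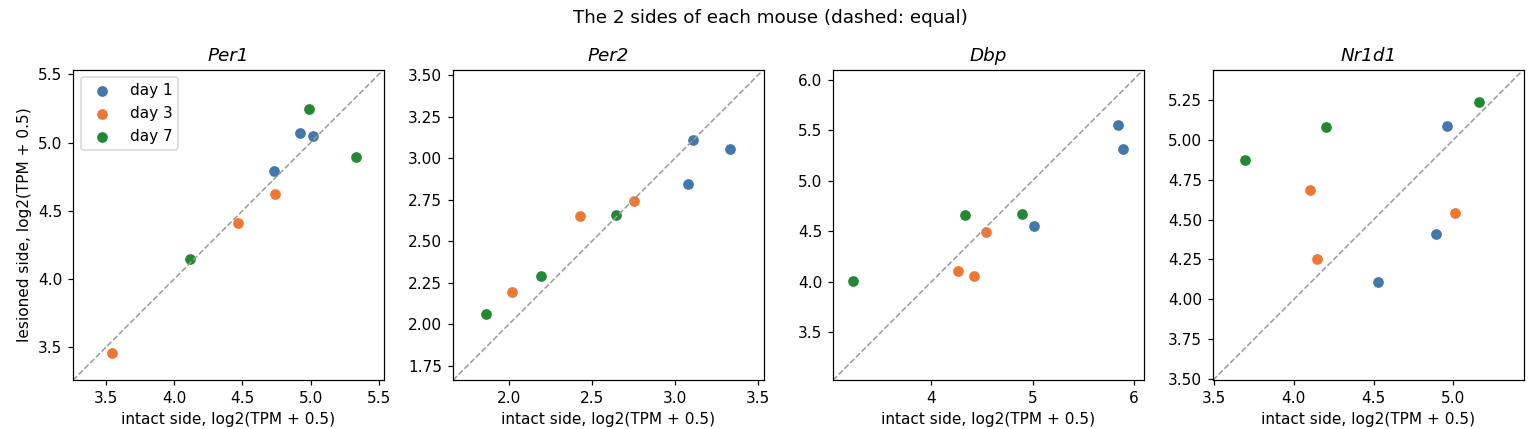
Level on the lesioned side against level on the intact side for Per1, Per2, Dbp, and Nr1d1, as log2(TPM + 0.5), with 1 point for each of 9 mice, colours for the day, and a dashed line where the sides are equal. Per2 lies close to a line (r = 0.971), whereas Nr1d1 spreads widely (r = 0.144).

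The third question was how the clock genes stood to each other over the mice. On the mean of the 2 sides, Arntl differed between days, with levels of 10.1 to 13.9 TPM at day 1, 16.5 to 21.04 at day 3, and 20.0 to 20.9 at day 7. The log2 difference was 0.70 (SE 0.14) from day 1 to day 3 and 0.83 (SE 0.14) from day 1 to day 7 (F = 21.6, limma adjusted p = 0.0228). This made 1 of 10 clock genes, against 8.32% of all genes, which is near the background share. Clock lay 0.31 and 0.38 higher at days 3 and 7 than at day 1 (limma adjusted p = 0.0778). Values of 2 of the Per genes and of the output gene were of the other sign, with -0.62 and -0.80 for Per2 (0.0769), -0.77 and -0.75 for Per3 (0.0977), and -1.05 and -1.06 for Dbp (0.0964), and none of these passed. Arntl, Clock, Per2, Per3, and Dbp were the 5 of 10 with an unadjusted p under 0.05, as were 4254 of the 14757 genes tested.

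The call of Arntl by day was lost on the intact side alone (adjusted p = 0.207), with the highest transcript (0.211), and without mouse 1 of day 1 (0.0531), mouse 3 of day 1 (0.0598), mouse 2 of day 3 (0.0508), or mouse 1 of day 7 (0.0687). The days hold different mice, and the time of day of collection is not given, so the day and that time cannot be told apart. The same holds for the age and sex of the mice, which are not given by mouse. Tissue markers moved with the day as well. Adipoq was higher at days 3 and 7 (2.30 and 2.93 on the log2 scale, limma adjusted p = 0.0169), as were Plin1, Cdh5, and Kdr, and Krt14 was lower (-0.58 and -0.88, adjusted p = 0.029). By list, 2 of 4 adipocyte, 2 of 3 endothelial, and 1 of 5 epidermal markers passed, and 0 of 7 muscle, 3 hair follicle, 4 fibroblast, 4 macrophage, 4 Schwann cell, and 2 salivary gland markers did. The summed muscle markers had medians of 10428, 12418, and 18118 TPM over the mice of days 1, 3, and 7. The part of tissue composition in the clock genes' values was not tested.

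**Figure D4:**
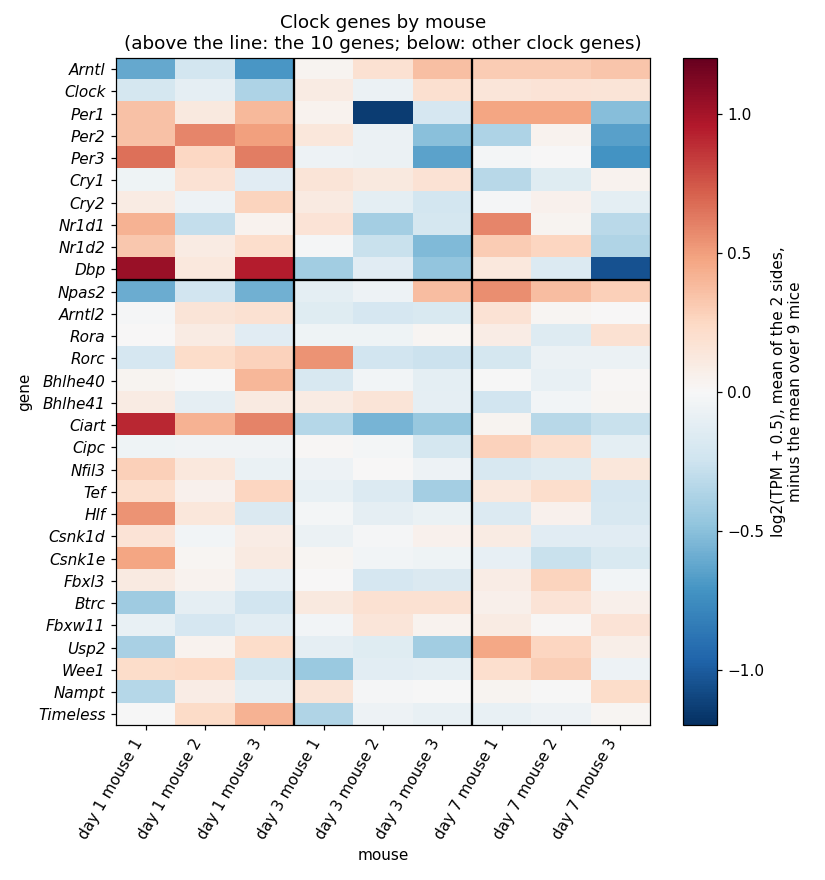
Mean of the 2 sides of the 10 clock genes (above the line) and of 20 further clock genes (below it) in each of the 9 mice, shown in colour as the difference from the gene's mean over mice on the log2(TPM + 0.5) scale, with mice ordered by day. Arntl and Clock are low in the 3 mice of day 1, where Per2 and Per3 are high.

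Over the 9 mouse means, Arntl varied with Clock (r = 0.934, rho = 0.933) and ran opposite to Per3 (r = -0.875, rho = -0.833), Dbp (r = -0.858, rho = -0.75), Per2 (r = -0.823, rho = -0.917), and Cry2 (r = -0.732, rho = -0.733). These 5 of 9 relations had an unadjusted exact permutation p under 0.05 (0.000992, 0.00177, 0.0043, 0.00747, and 0.0243), against 24.4% of the 14756 genes set against Arntl. None of the 9 passed after adjustment over all genes (adjusted p from 0.0974 to 0.914), nor did any other gene (0.0%). For Nr1d2, Per1, Nr1d1, and Cry1, r was -0.536, -0.378, -0.25, and 0.087. The day 1 mice lie apart in Arntl, so these values take in differences between days. Without mice 1 and 3 of day 1, r was 0.789 for Clock, -0.894 for Per2, -0.684 for Per3, -0.438 for Dbp, and -0.288 for Cry2. Cry2 fell short of the unadjusted threshold without mouse 3 of day 1 (r = -0.533), mouse 3 of day 3 (r = -0.698), or mouse 3 of day 7 (r = -0.706).

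On deviations from the mean of the day, r with Arntl was 0.671 for Clock (exact permutation p = 0.241), -0.892 for Cry2 (exact p = 0.0139), -0.639 for Per3 (exact p = 0.0231), -0.562 for Dbp (exact p = 0.12), and -0.261 for Per2 (exact p = 0.472). It was 0.597 for Cry1 (exact p = 0.0278) and -0.506 for Nr1d2 (exact p = 0.037). The signs for Clock, Cry2, Per2, Per3, and Dbp were the same as over all mice, with a smaller size for Clock, Per2, Per3, and Dbp and a larger one for Cry2. For Nr1d1 r was -0.518 (exact permutation p = 0.204). The share of all genes with such a within-day p under 0.05 was not counted.

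**Figure D5:**
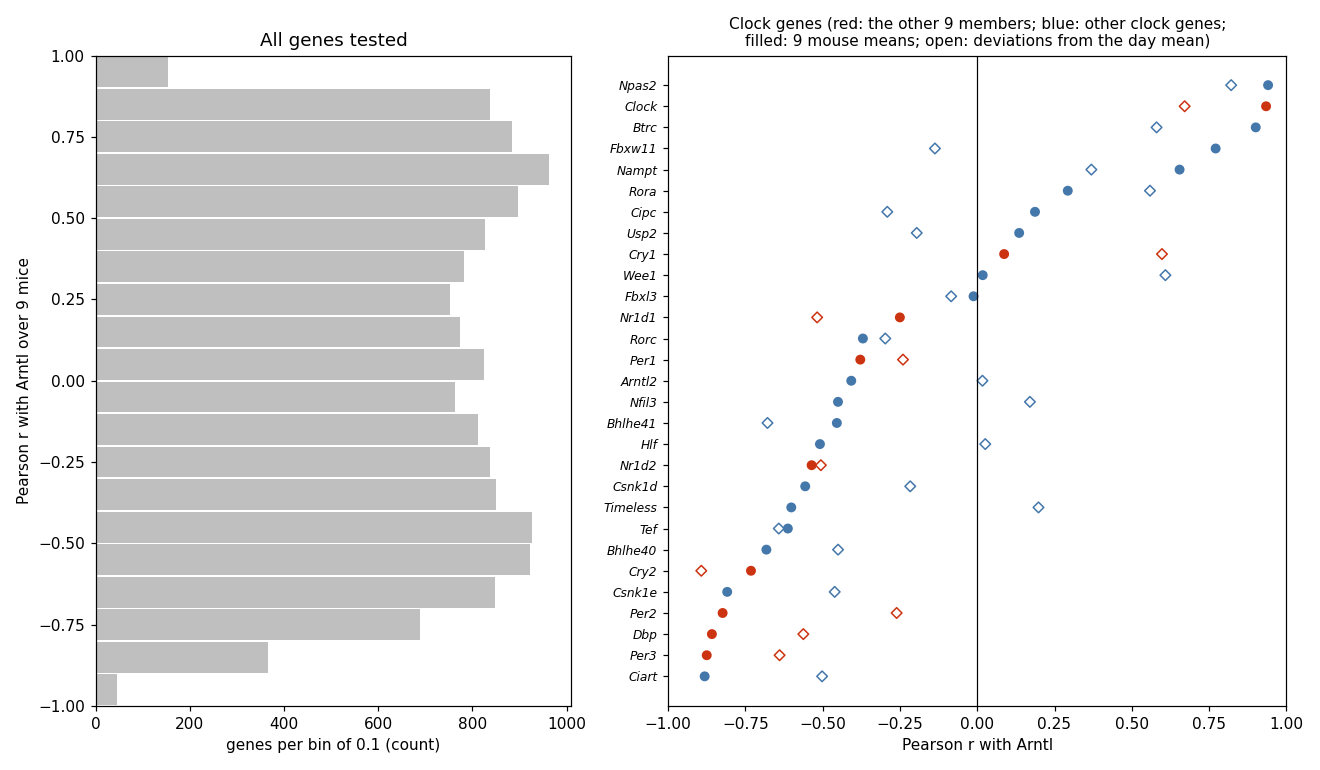
Pearson's r of each gene's level with Arntl: on the left, bars count all 14756 other genes tested by their r over the 9 mouse means. On the right, filled points show that r for the clock genes (red) and further clock genes (blue), and open points the r of deviations from the mean of the day. Clock lies near the upper end at 0.934, and Per3, Dbp, and Per2 near the lower end, from -0.875 to -0.823.

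The genes most like Arntl over the mice, out of 14756, were Lipo3, Tsga10, Ncam1, Uso1, and Gfra1 (r from 0.97 down to 0.957), and those most opposite were Irf5, Haus3, H2-K1, Casc3, and Ppil2 (r from -0.963 to -0.943). Clock was 28th from the top, and Per3 and Dbp were 100th and 144th from the bottom. Within days r was 0.657 to 0.764 for the first 5 and -0.786 to -0.544 for the others.

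Of 22 further genes of the clock, 20 could be tested, all but Rorb and Fbxl21. None of the 20 was called between the sides over all days. Arntl2 (log2 difference -0.19), Bhlhe41 (-0.18), and Nampt (-0.27) had an unadjusted limma p under 0.05 (0.0211, 0.0416, and 0.0128). So did 2163 of the 14757 genes tested. Between days 2 of 20 were called, against 8.32% of all genes. Npas2, which encodes a relative of CLOCK that also pairs with ARNTL, was 0.53 and 0.87 higher on the log2 scale at days 3 and 7 than at day 1 (limma adjusted p = 0.0445). Ciart, which encodes a repressor of the CLOCK and ARNTL pair, was lower by -1.09 and -0.83 (adjusted p = 0.0165). The r of Npas2 with Arntl was 0.941, 16th from the top, and that of Ciart -0.882, 87th from the bottom. Nfil3, which encodes a repressor at D-boxes, had the lowest p of the list for a lesion effect that differs between days (F = 17.4, limma adjusted p = 0.0619).

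Per1 is also a known target of the glucocorticoid receptor, so 8 glucocorticoid-responsive genes were set beside it. Between mice of the same day 2 of 8 were called (1.66% of all genes), Fkbp5, a co-chaperone of that receptor (F = 16.7, limma adjusted p = 0.0295), and Pdk4, a kinase that limits glucose oxidation (F = 14.2, adjusted p = 0.0369). Between days 3 of 8 were called (8.32% of all genes), Sgk1, Zbtb16, and Klf9 (adjusted p = 0.0353, 0.0379, and 0.0348). Between the sides over all days 1 of 8 was called (3.1% of all genes), Cdkn1a, a cell cycle inhibitor, higher on the lesioned side (log2 difference 0.56, adjusted p = 0.00245). The summed level of the 8 was higher on the lesioned side in 8 of 9 mice, though 3 of the 8 genes had log2 differences below 0 over all days, among them Fkbp5 (-0.20) and Zbtb16 (-0.22), which did not pass. The part of these genes in the clock genes' values was not tested.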

How the data were processed

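RNA was measured in both whisker pads of 9 mice (18 samples). The authors prepared libraries with a TruSeq kit that does not mark strand, removed duplicate reads, trimmed, and pseudoaligned to GRCm38 cDNA with Kallisto 0.43.1, after base calling with bcl2fastq 2.17.1.14. The deposited signal is TPM per transcript that the authors also normalized between samples, so the columns sum to 833186 to 1143839. The day 7 columns carry other mouse numbers than the sample titles and were matched by day, side, and library number. Mice 1 to 3 of day 7 are numbered by sample, not by those column names. Tests had been planned for plain TPM and were kept.

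Of 113194 transcripts, 98.46% were matched to the GRCm38 annotation (GENCODE) and summed per gene. Depth was estimated from the smallest steps of the values of long transcripts and covers counting error only. Genes that reached 1 TPM in 47% or more of the fitted samples were tested on log2(TPM + 0.5) with limma 3.58.1 in R 4.3.3 (moderated test with trend), adjusted by Benjamini-Hochberg over all genes tested, with 0.05 as the threshold. A fold change on this scale understates the change of low genes. Each day was fitted alone, and over all days with a term for day; days were compared on means of the 2 sides. Correlations used exact two-sided permutation tests on the size of r (Python 3.11.15, numpy 2.4.6, scipy 1.17.1, pandas 2.3.3, matplotlib 3.10.9).

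The sides of a mouse are pairs by design, and their residuals correlated in every mouse (r from 0.163 to 0.568). Fits with the mouse as a block were an alternative, as were other pseudocounts, filters, rescaling, the highest transcript, the intact side alone, a fit of all 18 samples, and leaving out each mouse. The clock genes, the further clock genes, the glucocorticoid-responsive genes, and the cell type markers were chosen with earlier results of these data known. Named in the text are all clock genes, list genes that passed, and the 5 genes most and least like Arntl; list genes short of the threshold were named after their values were seen. The tests were tried on simulated data. The authors' own tests were not repeated.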

Additional observations from a re-analysis of the deposited data

Results flagged for a closer look

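In 3 clock genes the difference between the sides had 1 sign in all 3 mice of a day and the other sign in all 3 mice of another day. Per1 was higher on the lesioned side in 3 of 3 mice at day 1 and lower in 3 of 3 at day 3, and the mean log2 differences of these days were 0.1688 apart (limma interaction over the days, F = 0.0551, adjusted p = 0.992). With the highest transcript of each gene both directions turned, to -0.07 at day 1 and 0.46 at day 3. Per2 was lower in 3 of 3 mice at day 1, in mouse 3 only by 8.127 against 8.130 TPM, and higher in 3 of 3 at day 7, 0.275 apart (F = 0.535, adjusted p = 0.916). Nr1d2 was lower in 3 of 3 at day 1 and higher in 3 of 3 at day 7, 0.7444 apart (F = 2.89, adjusted p = 0.654). In the fit blocked by mouse, the unadjusted p of Nr1d2 was 0.00953 and its adjusted p 0.217. None of the 3 passed the test of the difference itself. The share of all genes with such a change of sign was not counted.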

How the results depend on the processing

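With the highest transcript in place of the sum, 0 clock genes instead of 1 were called between the sides over all days, between mice of a day, and between days. Between days 0 were called on the intact side alone. Between mice, 2 were called at a TPM of at least 5, Dbp being the second (adjusted p = 0.0489). Leaving out each mouse gave 0 to 1 calls between the sides over all days, 0 to 2 between mice (2 without day 7 mouse 1), and 0 to 1 between days. With within-day deviations, 2 instead of 6 clock genes had an exact p under 0.05 between left and right, and the share of all genes was not counted there. The mouse as a replicate block changed no call of a clock gene: the count over all days was 1, with an adjusted p of 0.00644 for Arntl. No called value changed sign. Of uncalled side differences and correlations, 21 changed sign, 3 with the highest transcript, 1 with rescaling, and 17 without a mouse. Over all single-gene values, the called ones included, 1181 kept their side of the threshold, 29 fell short of it, and 5 passed it. The causes were not tested.

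Counts over all genes moved more. Leaving out a mouse gave 0 to 4 calls at day 1 (0 with all), 0 to 133 at day 3 (217), 1 to 127 at day 7 (230), 227 to 692 over all days (457), 3 to 88 for the difference between days of the lesion's effect (27), 89 to 277 between mice (245), and 77 to 1053 between days (1228). Of the other settings, a fit of all 18 samples gave 29 at day 1, a TPM of at least 5 gave 18 for the difference of the lesion's effect, the highest transcript gave 108 between mice, and the intact side alone gave 9 between days. Depth was only estimated, so no counting intervals are given.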
